A study of Mus musculus with 15 samples.

Results

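The 10 genes described here encode the machinery that places, reads and removes N6-methyladenosine (m6A) in messenger RNA, and they were taken as a named list by gene symbol. The gene table held 55536 annotated genes, of which 17366 had enough counts to be tested, and all 10 members were among them. The list holds 4 writers (Mettl3, Mettl14, Wtap and Zc3h13), 4 readers (Ythdf1, Ythdf2, Ythdf3 and Ythdc1) and 2 erasers (Alkbh5 and Fto).

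m6A is a methyl mark on internal adenosines of polyadenylated RNA. It is deposited in the nucleus by the METTL3 and METTL14 heterodimer, which WTAP and ZC3H13 hold in nuclear speckles and direct to RNA, and it is removed by the dioxygenases ALKBH5 and FTO. YTHDC1 binds the mark in the nucleus and acts in splicing and export, and the YTHDF proteins bind it in the cytosol, where YTHDF2 is best known for recruiting deadenylases to degrade the marked transcript. In T cells the writer complex is known for its part in leaving the resting state, with transcripts of the SOCS family described among its targets.

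All libraries came from CD8+ T cells of OT-I mice, whose transgenic receptor recognises the SIINFEKL peptide of ovalbumin, on a C57BL/6J strain background. Naive cells were purified from OT-I mice that received no transfer. Ag cells were OT-I cells transferred into C57BL/6J recipients that were given peptide with control IgG, and Ag+Costim cells came from recipients given peptide with agonist antibodies to OX40 and 4-1BB. The labels give day 4 for collection of the transferred cells from spleen and lymph nodes, followed by sorting, with 5 libraries in each of the 3 groups. Transfer, antigen and residence in a recipient all separate Naive from the other groups and cannot be told apart in a comparison with Naive. The study's methods place the OT-I line on a Rag-deficient background and describe the donors by the CD45.1 allele. No age is given per library.

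Total counts per library ranged from 4865952 to 25280667. Every Ag library and Ag+Costim 1 to 3 were sequenced in lane 2, and Ag+Costim 4 and 5 and every Naive library in lane 3, so lane and group cannot be told apart between Ag and Naive. The 8 listed markers of CD8 T cells were found in every library, with a summed level of 4908 to 8980 CPM, the read count scaled to a common library size after TMM normalisation. Some libraries stood apart from their group in a list of 7 markers of dividing or effector T cells (Mki67, Top2a, Mcm2, Mcm5, Ccnb1, Gzmb and Tbx21), all of which were detected in each group. Bulk libraries do not tell fewer cells of a type from less RNA per cell. Their summed level was 321 to 1208 CPM in Naive 1 to 4 but 3035 in Naive 5. It was 615 in Ag 1 and 652 in Ag 4 against 2962 to 3738 in Ag 2, Ag 3 and Ag 5, and it was 3476 to 4529 in Ag+Costim. The 6 B cell markers summed to 143, 374 and 176 CPM in Ag 1, Ag 3 and Ag 4 and to at most 34.2 elsewhere, and the 6 erythroid markers reached 1311 CPM in Ag 3. The recorded input was 1.4 for Ag 2 and 1.8 for Ag 5 against 7 to 10 in the other libraries, with no unit given. The sequencing core's percentage RiP, a name not spelled out, was 44.4 to 62.7 in Naive and 69.3 to 74.3 in Ag+Costim. It was 72.3 and 78.3 in Ag 2 and Ag 5 and 43.8, 15.4 and 55.0 in Ag 1, Ag 3 and Ag 4. Genes with a count numbered 30152 to 33853 in Naive and 23891 to 25410 in Ag+Costim. They numbered 21705 and 20949 in Ag 2 and Ag 5 and 31845 to 44408 in the other Ag libraries.

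The sequences that distinguish the transcripts discussed further on are those at exon ends, where a spliced transcript continues into the next exon and an intron-reading transcript continues into the intron. Each is given 5′ to 3′ from GENCODE M21 transcripts (GRCm38), with the 15 bases that end the exon in lower case and the 15 bases that follow in capitals. In Mettl3, on the minus strand of chromosome 14, exon 1 ends at position 52304888, and the transcript Mettl3-215, annotated as a retained intron, runs a further 1267 bases into the first intron.
Mettl3-201, exon 1 to exon 2: actctgggcacttggATTTAAGGAACCCAG
Mettl3-215, exon 1 to intron: actctgggcacttggGTGAGGTGCGGGGTG
In Fto, on the plus strand of chromosome 8, Fto-204 reads 2513 bases past the end of exon 7 at 91485278, and Fto-203 reads 3334 bases past the end of exon 8 at 91522896. Both are annotated as protein coding.
Fto-201, exon 7 to exon 8: aagatggagagcatgACAAATGCGGTGCTC
Fto-204, exon 7 to intron: aagatggagagcatgGTAAGTGCGTGAGGT
Fto-201, exon 8 to exon 9: ggagtggcatgccagGTGCCAGTCCCGAGT
Fto-203, exon 8 to intron: ggagtggcatgccagGTTTGTTCTGCTCAG
In Ythdc1, on the plus strand of chromosome 5, Ythdc1-208 reads 1358 bases past the end of exon 11 of Ythdc1-203 at 86828121, and it is annotated as a target of nonsense-mediated decay.
Ythdc1-203, exon 11 to exon 12: ccgggatgtgggaagGCGTCGACCAGAAGA
Ythdc1-208, exon 11 to intron: ccgggatgtgggaagGTTAGAAACGTTCTT
In these 4 pairs the intron-reading sequence begins with GT, the usual start of an intron.

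The DNA just upstream is shown next for Ythdf2, the member with the highest level, and for Ythdc1 and Fto, the members with the widest falls. It was taken from RefSeq starts on GRCm38.p6 and cut where a GENCODE transcript begins. In Ythdf2 the capitals mark the GC box GGGCGG, read by SP family factors. In Ythdc1 they mark the same GC box and the core TGACGT of the cyclic AMP response element, and in Fto they mark TTCNNNGAA, the spaced palindrome read by STAT factors. Both strands were searched, and matches of different motifs do not overlap in the windows printed.
Ythdf2, chr4:132212304-132212506, minus strand: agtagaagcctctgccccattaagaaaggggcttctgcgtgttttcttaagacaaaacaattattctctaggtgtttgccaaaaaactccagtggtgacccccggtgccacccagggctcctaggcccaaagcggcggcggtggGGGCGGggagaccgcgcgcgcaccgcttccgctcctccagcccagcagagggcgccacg
Ythdc1, chr5:86804016-86804220, plus strand: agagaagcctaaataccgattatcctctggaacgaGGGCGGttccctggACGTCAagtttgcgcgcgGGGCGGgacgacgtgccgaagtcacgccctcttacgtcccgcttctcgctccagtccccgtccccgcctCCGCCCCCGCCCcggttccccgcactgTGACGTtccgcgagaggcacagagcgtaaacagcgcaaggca
Fto, chr8:91313275-91313524, plus strand: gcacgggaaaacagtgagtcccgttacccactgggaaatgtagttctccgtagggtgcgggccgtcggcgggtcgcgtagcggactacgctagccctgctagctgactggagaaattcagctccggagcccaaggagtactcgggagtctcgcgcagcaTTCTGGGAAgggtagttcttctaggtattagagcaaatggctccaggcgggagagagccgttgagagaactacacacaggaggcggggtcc
Windows of 300 bases around a RefSeq start were present for 8 of the 10 members. The GC box was in at least 1 window of 6 of those 8 members (Wtap, Zc3h13, Ythdf1, Ythdf2, Ythdc1 and Alkbh5) and in 35.7% of all 32851 windows. TTCNNNGAA was found for Fto alone among the 8 members, at 91 bases before the start, and in 8.30% of all windows, and TGACGT was found for Ythdf1 and Ythdc1 and in 7.51%. The ETS core CCGGAA was present for Mettl3, Wtap and Zc3h13 (14.9% of windows), and CCAAT for Wtap, Ythdf1 and Alkbh5 (37.4%). CACGTG was present for Ythdf1 only (7.15%), and neither TATAAA (13.6%) nor TGAGTCA (5.20%) was matched for any of the 8.

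Every member was detected in every library, and the order of the levels per length of merged exon was led by 2 cytosolic readers. Levels are compared between genes per kilobase of merged exon (CPM per kb). Ythdf2 was highest in each group, at 29.2 ± 3.74 CPM per kb in Naive cells, 27.5 ± 3.52 in Ag and 36.7 ± 2.57 in Ag+Costim (mean ± SD, n = 5). Ythdf3 was second, at 17.7 ± 1.76, 13.1 ± 3.31 and 13.4 ± 1.21 CPM per kb. Mettl3, Wtap, Zc3h13, Ythdf1 and Alkbh5 lay close together, between 8.06 and 12.0 CPM per kb on average in each group, and neighbours in that order differed by less than the sum of their SDs, except Wtap (11.6 ± 0.326) and Alkbh5 (9.87 ± 1.30) in Ag+Costim. By this length Mettl14, Fto and Ythdc1 took the last 3 places in every group. Their merged exons, which join all annotated forms, span 7.419, 13.031 and 13.651 kb. Their coding forms with the largest mean share (Mettl14-201, Fto-201 and Ythdc1-203) span 2741, 3564 and 3269 bases. The order between genes thus depends on the length used, and an order by transcript length was not made. Ythdc1 had the lowest level of the list in Ag and in Ag+Costim, where it was at 2.58 ± 0.406 CPM per kb, with Fto at 4.26 ± 0.208 and Mettl14 at 6.27 ± 0.334.

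**Figure D1:**
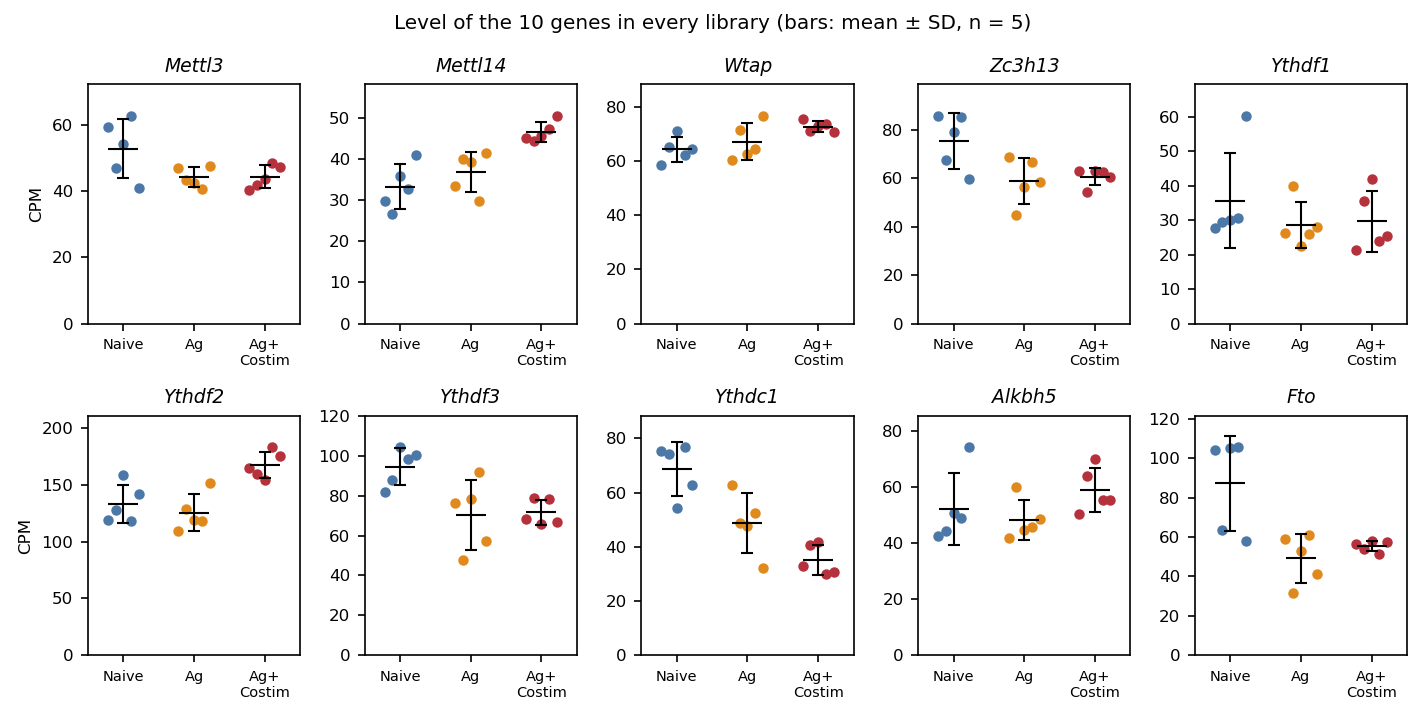
Level of each of the 10 genes in CPM (y axis, from 0) in every library of the Naive, Ag and Ag+Costim groups (points, replicates 1 to 5 from left to right), with the mean and SD as black bars. Mettl14 and Ythdf2 were higher in all 5 Ag+Costim libraries than in any Ag library, Ythdc1 was lower in all 5 Ag+Costim libraries than in any Naive library, and 3 Naive libraries held Fto at 104 to 106 CPM.

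Among the writers, Mettl14 was higher in Ag+Costim than in Naive, and Mettl3 passed in no comparison in the main fit. The main fit is edgeR with TMM scaling and no added term over all 15 libraries. METTL3 is the catalytic subunit and METTL14 the partner that positions the RNA, and both genes are protein coding, Mettl3 at chr14:52294841-52305128 and Mettl14 at chr3:123368297-123386108. Mettl14 stood at 29.7, 26.7, 36.0, 32.8 and 40.9 CPM in Naive 1 to 5, at 33.5, 40.0, 39.2, 29.9 and 41.4 in Ag and at 45.0, 44.3, 45.7, 47.2 and 50.5 in Ag+Costim. The Ag+Costim libraries were thus all above both other groups, while Naive and Ag overlapped. The p-values behind each test measure the spread between these libraries. The paper's legends treat each library as a separate biological replicate, with n = 5 per group, and the labels do not give the number of animals behind each. Ag+Costim was 1.40-fold Naive (log2 fold change 0.49, SE 0.13, edgeR quasi-likelihood test with Benjamini-Hochberg FDR = 0.0122) and 1.27-fold Ag (log2 fold change 0.34, SE 0.13, FDR = 0.116). Naive 5, the Naive library high in dividing or effector markers, was also the highest of its group in Mettl14. Ag 1 and Ag 4, low in those markers, were the lowest of theirs. The part of these markers in the Mettl14 difference was not tested. Within lane 3 alone, which held 2 Ag+Costim libraries and all Naive ones, the log2 fold change was 0.56 (FDR = 0.0521), and without Ag 2 the difference from Ag passed the threshold (0.49, FDR = 0.0425).

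Mettl3 was at 59.4, 46.8, 54.2, 62.7 and 40.8 CPM in Naive 1 to 5, at 46.8, 43.3, 42.5, 40.5 and 47.6 in Ag and at 40.4, 41.9, 43.7, 48.6 and 47.1 in Ag+Costim. Ag and Ag+Costim occupied the same range, and only Naive reached above 50 CPM. The log2 fold change from Naive was -0.26 in Ag (SE 0.12, FDR = 0.168) and -0.25 in Ag+Costim (SE 0.12, FDR = 0.0908), and neither passed. Both passed without Naive 5, at -0.33 (FDR = 0.0417) and -0.32 (FDR = 0.0248). The second was called in 5 of 27 alternatives, among them edgeR over all libraries without TMM and with upper-quartile scaling. Costimulation over antigen gave 0.01 with a 95% interval of -0.25 to 0.26. Mettl3 shares 933 exonic bases with Tox4 on the opposite strand, and the library kit does not mark strand, so reads there cannot be told apart. As a ratio per length, Mettl14 to Mettl3 was 0.342 to 0.454 in Naive 1 to 4 and 0.685 in Naive 5, 0.489 to 0.632 in Ag and 0.664 to 0.762 in Ag+Costim.

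Neither adaptor gene passed in any comparison in the main fit. Wtap (chr17:12966796-12994169), which anchors the heterodimer in speckles, ranged from 58.5 to 71.2 CPM in Naive, from 60.4 to 76.8 in Ag and from 70.6 to 75.6 in Ag+Costim. Its widest difference was a log2 fold change of 0.18 for Ag+Costim over Naive (95% interval -0.01 to 0.37, FDR = 0.110), which 2 of 27 alternatives called. Zc3h13 (chr14:75284373-75344426), a scaffold that keeps the complex nuclear, was at 59.8 to 85.9 CPM in Naive cells, 44.9 to 68.7 in Ag and 54.5 to 63.3 in Ag+Costim. It stood at a log2 fold change of -0.35 in Ag against Naive (SE 0.13, FDR = 0.101) and -0.31 in Ag+Costim against Naive (SE 0.13, FDR = 0.0607). Without Naive 5, its lowest Naive library, the FDR was 0.0303 and 0.0236. The second difference was called in 7 of 27 alternatives. Among these were edgeR over all libraries without TMM, with upper-quartile scaling and with the replicate number as a block.

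Of the readers, the nuclear Ythdc1 and the cytosolic Ythdf2 went in opposite directions in Ag+Costim against Naive. Ythdc1 (chr5:86804221-86836659) was at 75.4, 74.3, 54.2, 76.8 and 62.7 CPM in Naive 1 to 5. The Ag libraries held 62.9, 48.7, 47.7, 52.4 and 32.2 CPM, and the Ag+Costim libraries 33.1, 40.5, 41.7, 29.8 and 30.7. Ag lay between the other groups and overlapped both, whereas Ag+Costim and Naive did not overlap. Ag+Costim had 0.512 of the Naive level (log2 fold change -0.97, SE 0.17, edgeR FDR = 0.00283), the lowest FDR among the members. The comparison of Ag+Costim with Naive passed under each of the 27 alternatives run, with FDR from 1.22e-06 to 0.0316 and a log2 fold change of -1.18 (FDR = 0.0198) within lane 3. Against Naive, Ag gave -0.49 (SE 0.17, FDR = 0.0836), and Ag+Costim against Ag gave -0.47 (SE 0.17, FDR = 0.107). These crossed the threshold without Ag 1 (-0.61, FDR = 0.0403) and without Ag 5 (-0.59, FDR = 0.0230) in turn. Ag 1, lowest in dividing or effector markers among the Ag libraries, held the highest Ythdc1 of its group, and Ag 5, highest in those markers, held the lowest. Ag 1 and Ag 5 also differed in percentage RiP, at 43.8 and 78.3. Naive 3, lowest in Ythdc1 among the Naive libraries, had the highest percentage RiP of that group, at 62.7. Ag 3, the lowest of all at 15.4, held less Ythdc1 than Ag 1. What the markers and this percentage contribute was not tested. Ythdc1 shares 631 exonic bases with the long noncoding RNA Gm43055 on the same strand.

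Ythdf2 (chr4:132184912-132212303) was at 119, 128, 159, 118 and 142 CPM in Naive, 109, 129, 119, 119 and 152 in Ag and 165, 160.0, 154, 183 and 176 in Ag+Costim. Each Ag+Costim library exceeded each Ag library, while Naive 3 reached into the Ag+Costim range. Costimulation over antigen gave 1.33-fold (log2 fold change 0.42, SE 0.11), which did not pass at an edgeR FDR of 0.0807. The difference passed without Ag 2 (0.54, FDR = 0.0348) and without Ag 5 (0.50, FDR = 0.0205), and it was 0.36 within lane 2 (FDR = 0.628, 3 Ag+Costim against 5 Ag libraries). Ag+Costim was 1.26-fold Naive (log2 fold change 0.33, SE 0.11, FDR = 0.0314). That call was lost with library totals in place of TMM scaling (0.18, FDR = 0.112), within lane 3 (0.43, FDR = 0.0721) and without any 1 of Ag+Costim 1, 2, 4 or 5 or Naive 1, 2 or 4 (FDR from 0.0526 to 0.0825). Ag against Naive gave -0.09 (95% interval -0.33 to 0.16). Per length of merged exon, Ythdf2 exceeded Ythdc1 by a ratio of 4.60 to 8.74 in Naive cells, 5.19 to 14.1 in Ag and 11.1 to 18.3 in Ag+Costim. Merged exons span 4.572 kb in Ythdf2 and 13.651 kb in Ythdc1, against 4129 bases in Ythdf2-203 and 3269 in Ythdc1-203. The size of the ratio thus depends on the length used, which scales all 3 groups alike.

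Of the other cytosolic readers, Ythdf3 was lower in Ag+Costim than in Naive, and Ythdf1 passed in no comparison and under none of the alternatives run. YTHDF1 is known for promoting translation of marked RNA, and YTHDF3 for acting with both of its relatives. Ythdf3 (chr3:16183212-16217037) was at 81.7, 88.1, 104, 98.5 and 101 CPM in Naive, 76.5, 47.5, 78.4, 92.0 and 57.3 in Ag and 68.2, 79.0, 65.9, 78.3 and 66.9 in Ag+Costim. All Ag+Costim libraries lay under all Naive ones, at 0.757 of their level (log2 fold change -0.40, SE 0.15, FDR = 0.0473). This call was lost without any 1 of the Naive or Ag+Costim libraries or Ag 2, with FDR from 0.0556 to 0.144, and it was -0.38 (FDR = 0.0938) within lane 3. In Ag the log2 fold change from Naive was of similar size, at -0.43 (SE 0.16, FDR = 0.0968), and it passed without Ag 4 (-0.55, FDR = 0.0385). Ythdf1 (chr2:180904377-180920949) lay between 21.2 and 41.9 CPM in all libraries but Naive 5, which had 60.3. Its log2 fold change was -0.32 for Ag (SE 0.25, FDR = 0.388) and -0.27 for Ag+Costim (SE 0.25, FDR = 0.380) against Naive. The level summed over the 3 YTHDF genes came from Ythdf2 at 50.8% ± 3.70 in Naive cells, 55.7% ± 4.99 in Ag and 62.2% ± 4.14 in Ag+Costim (mean ± SD, n = 5).

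Of the erasers, Fto was lower than in Naive in both groups of transferred cells, and Alkbh5 passed in no comparison in the main fit. Both proteins oxidise the methyl group, and FTO also acts on the methylated base next to the RNA cap. Fto (chr8:91313525-91668439) was at 104, 63.6, 105, 106 and 58.1 CPM in Naive 1 to 5. It was at 59.2, 31.7, 52.9, 61.1 and 41.2 CPM in Ag and at 56.6, 53.9, 57.8, 51.6 and 57.7 in Ag+Costim. The Naive libraries fell into 3 near 105 CPM and 2 near 60, the latter being those with the most dividing or effector markers of the group (1208 CPM in Naive 2 and 3035 in Naive 5). The lowest values overall were those of Ag 2 and Ag 5, the libraries with the least recorded input. Ag was at 0.563 of Naive (log2 fold change -0.83, SE 0.20, edgeR FDR = 0.0298) and Ag+Costim at 0.635 (log2 fold change -0.65, SE 0.20, FDR = 0.0226). Ag+Costim and Naive did not overlap, while Ag and Naive did. The first call was lost without any 1 of Ag 2, Ag 5, Ag+Costim 4 or Naive 1, 3 or 4 (FDR from 0.0599 to 0.0908) and the second without Ag+Costim 4 or Naive 1, 3 or 4 (FDR from 0.0587 to 0.0927). Within lane 3 the second was -0.68 (FDR = 0.109). Ag+Costim over Ag was 0.17 (95% interval -0.26 to 0.61). The part of the markers and of the input in the Fto difference was not tested. Fto shares 304 and 144 exonic bases with the antisense transcripts Gm45427 and 4831440D22Rik.

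Alkbh5 (chr11:60536381-60558512) was at 42.7, 44.2, 50.7, 49.0 and 74.3 CPM in Naive, 41.8, 60.0, 44.9, 45.8 and 48.7 in Ag and 50.6, 64.0, 69.9, 55.4 and 55.5 in Ag+Costim. Naive 5 held the highest value of all 15 libraries. The log2 fold change was -0.11 for Ag over Naive (SE 0.16, FDR = 0.640), 0.29 for Ag+Costim over Ag (SE 0.16, FDR = 0.248) and 0.18 for Ag+Costim over Naive (SE 0.16, FDR = 0.351). The last was called in 3 of 27 alternatives, among them without Naive 5 (0.35, FDR = 0.0364). The ratio of Alkbh5 to Fto per length of merged exon was 0.893 to 1.51 in Naive 1 to 4, 2.78 in Naive 5, 1.54 to 4.12 in Ag and 1.94 to 2.63 in Ag+Costim. Its size depends on the length used, since merged exons span 13.031 kb in Fto and Fto-201 spans 3564 bases. In Alkbh5 the 2 lengths are 5.987 kb and 5730 bases (Alkbh5-201).

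**Figure D2:**
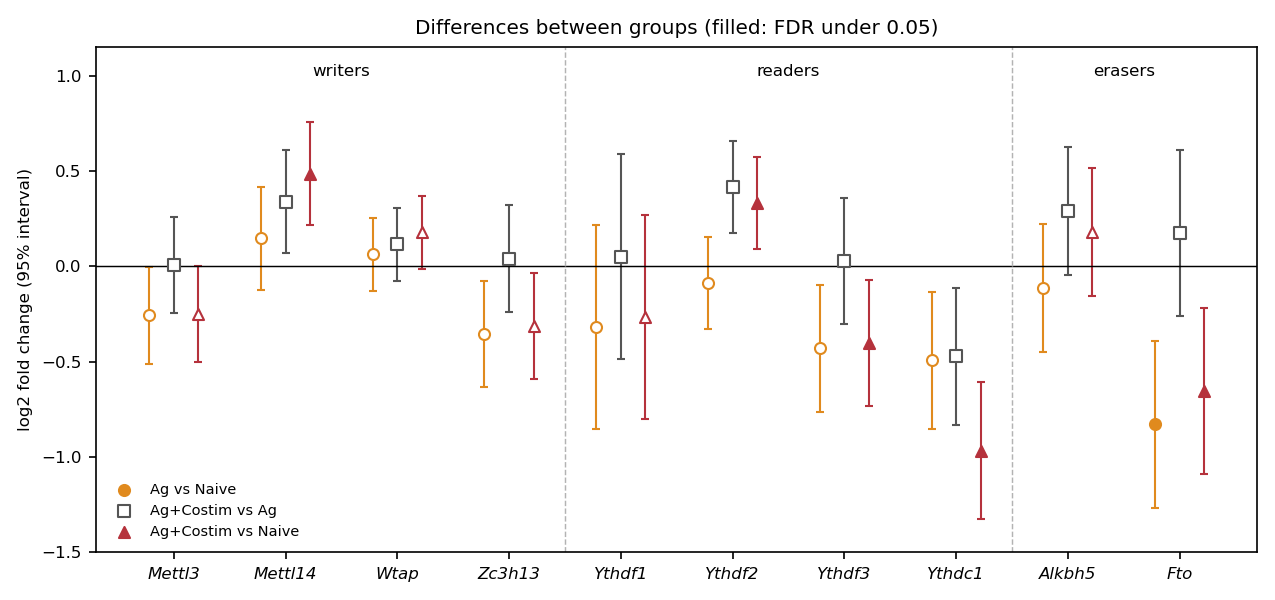
Log2 fold change with its 95% interval (y axis) for the 10 genes (x axis) in Ag vs Naive (circles), Ag+Costim vs Ag (squares) and Ag+Costim vs Naive (triangles), filled where the edgeR FDR was under 0.05. The 6 filled points are Fto in Ag vs Naive and Mettl14, Ythdf2, Ythdf3, Ythdc1 and Fto in Ag+Costim vs Naive.

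Over the list, antigen alone was accompanied by 1 call. In Ag against Naive, 0 of 10 members were called higher, where 3.05% of all tested genes were, and 1 was called lower (Fto), where 3.66% were. At an unadjusted p under 0.05 there were 5 members and 28.7% of all genes. DESeq2 called 0 members higher and 2 lower (Ythdc1 and Fto), and 2778 genes in all. None of the 10 had CPM without overlap between the groups, against 3.85% of genes. The median log2 fold change was -0.29 over the members and 0.08 over all genes. With lane as a term, 0 genes of the table passed in this comparison.

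With costimulation added to antigen, 0 of 10 members passed in either direction by edgeR, where 0.0346% of all tested genes did, and 3 had an unadjusted p under 0.05 (Mettl14, Ythdf2 and Ythdc1), as had 26.8% of all genes. DESeq2 called 2 higher, Mettl14 and Ythdf2, and 2533 genes in all. Voom with sample quality weights, an alternative added after the data were seen, called 4 higher and 1 lower, and 11205 of the 17366 genes. CPM did not overlap for 2 members, Mettl14 and Ythdf2, and for 6.33% of genes. The median was 0.08 over the members and -0.10 over all genes.

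Ag+Costim differed from Naive in 2 members called higher, Mettl14 and Ythdf2, and 3 called lower, Ythdf3, Ythdc1 and Fto. Of all tested genes 21.0% were called higher and 23.6% lower, so calls were about as common in the table at large as among the members. CPM did not overlap for 4 members (Mettl14, Ythdf3, Ythdc1 and Fto) and for 45.0% of genes. The median was -0.26 over the members and -0.08 over all genes. With lane as a term, Ythdc1 alone passed (-1.18, FDR = 0.0312). The comparisons with Naive share the Naive libraries, and those with Ag share the Ag libraries.

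**Figure D3:**
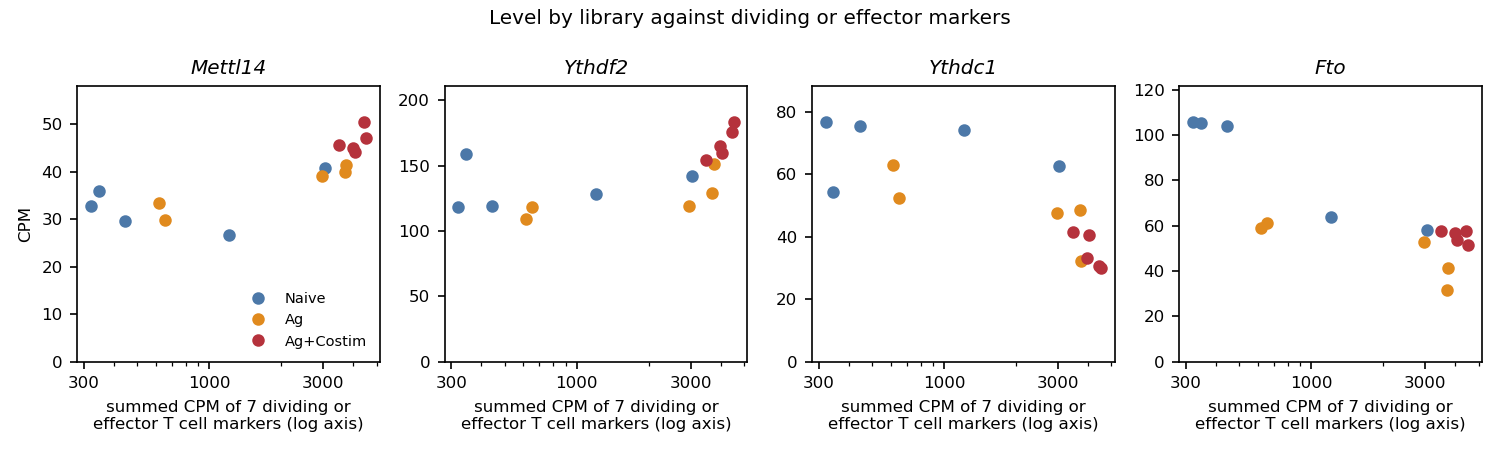
CPM of Mettl14, Ythdf2, Ythdc1 and Fto (y axes, from 0) in each of 15 libraries against the summed CPM of 7 markers of dividing or effector T cells (log x axis), coloured by group. Naive 5 lies at 3035 CPM of markers, apart from the other Naive libraries at 321 to 1208, and Ag 1 and Ag 4 lie at 615 and 652, apart from the other Ag libraries.

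Naive 5, which stood apart in the marker list, was the Naive library with the highest Mettl14, Ythdf1 and Alkbh5 and the lowest Mettl3, Zc3h13 and Fto. Fto and Zc3h13 shared an order in which Naive 1, Naive 3 and Naive 4 were the 3 highest of all 15 libraries and Ag 2 was the lowest. Leaving out both Naive 5 and Ag 3, an alternative chosen after the data were seen, put 4 members higher in Ag+Costim against Naive by edgeR: Mettl14 (0.65, FDR = 0.00195), Ythdf2 (0.44, FDR = 0.0119), Alkbh5 (0.42, FDR = 0.0153) and Wtap (0.26, FDR = 0.0332). Fto and Ythdc1 were then the members called lower, at -0.70 (FDR = 0.0143) and -0.91 (FDR = 0.00218), and Ythdf3 was no longer called (-0.30, FDR = 0.163). In the main fit 21.0% of all tested genes were called higher and 23.6% lower. The shares without Naive 5 and Ag 3 are not given here, so these member calls cannot be set against the table at large.

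The genes whose level followed a member most closely over the 15 libraries were taken among 11330 tested genes with a mean of at least 5 CPM, by Pearson's r of log2 CPM. These are descriptions over libraries that share groups, lanes and depth. For Mettl3 they were Ears2 (r = 0.910), Fastk (0.905) and 0610037L13Rik (0.894), and only 2 genes exceeded 0.9. Ythdf2 had 25 genes above 0.9, led by Elp2 (0.952), Wbp11 (0.946) and Cul1 (0.937). Alkbh5 had 7, led by Rnf10 (0.936), Gatad2a (0.933) and Cnot6 (0.915), the last being a catalytic subunit of the deadenylase complex.

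Transcripts that read into an intron made up a smaller part of Mettl3 and Fto in Ag+Costim than in Naive. This difference did not pass edgeR's usage test. Limma's diffSplice, read here for the gene as a whole, called Fto and not Mettl3, so it does not show which transcripts differed. Mettl3-215, the exon 1 read-through shown above, took a share of 0.178, 0.141, 0.117, 0.193 and 0.0928 of the estimated count of Mettl3 in Naive 1 to 5. The share was 0.131, 0.0621, 0.133, 0.152 and 0.0197 in Ag and 0.0672, 0.0427, 0.0354, 0.0267 and 0.0501 in Ag+Costim. Naive and Ag+Costim did not overlap, and Ag spread over the range of both, with the low values in Ag 2 and Ag 5. How many of all tested transcripts lacked overlap in share was not counted, here or for Fto below. By CPM, 45.0% of genes did not overlap in this comparison. The full-length coding Mettl3-201 took a share of 0.737 ± 0.0740 in Naive cells, 0.826 ± 0.0949 in Ag and 0.906 ± 0.0265 in Ag+Costim (mean ± SD, n = 5). Ag 2 and Ag 5 also had the highest percentage RiP and the fewest genes with a count among the Ag libraries. All Ag+Costim libraries had a higher percentage RiP and fewer genes with a count than any Naive library. The part of these in the shares of Mettl3 and Fto was not tested.

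Fto showed the same layout in its forms Fto-203 and Fto-204, which end in introns 8 and 7. Fto-203 held a share of 0.0961 to 0.213 in Naive cells, 0.0304 to 0.205 in Ag and 0.0407 to 0.0614 in Ag+Costim. For Fto-204 the range was 0.0572 to 0.157 in Naive cells, 0.0326 to 0.173 in Ag and 0.0207 to 0.0457 in Ag+Costim. Fto-201, which carries all 9 exons, had a mean share of 0.704 ± 0.0886 in Naive cells, 0.778 ± 0.121 in Ag and 0.905 ± 0.0148 in Ag+Costim, and the first and last did not overlap. In the transcript test of Ag+Costim against Naive, Mettl3-215 had an unadjusted p of 0.0909 (FDR = 0.667), Fto-204 0.0910 (FDR = 0.668) and Fto-203 0.134 (FDR = 0.766).

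The replicates of Ag differed widely in the transcripts of Ythdc1. Ythdc1-208 held a share of 0.0602, 0.0509, 0.292, 0.434 and 0.459 in Ag 1 to 5. Its share was 0.0615 to 0.124 in Naive and 0.0430 to 0.0802 in Ag+Costim, so that 3 Ag libraries lay above all others. Of these 3, Ag 3 and Ag 4 had more B cell marker RNA and Ag 5 did not, and Ag 5 alone had a low input. Ag 1, also with more B cell marker RNA, and Ag 2, also with a low input, were not among the 3. The part of either in the share of Ythdc1-208 was not tested. Ythdc1-207, a retained intron, took 0.0541 to 0.134 in Naive cells, 0.00389 to 0.126 in Ag and 0.0304 to 0.0761 in Ag+Costim, with overlap throughout. The coding share of Ythdc1 was 76.6% ± 5.57 in Naive cells, 59.7% ± 21.5 in Ag and 83.6% ± 3.33 in Ag+Costim. Ythdf2-202, annotated as a retained intron, took 0.130 to 0.354 of Ythdf2 in Naive cells, 0.0735 to 0.348 in Ag and 0.0952 to 0.391 in Ag+Costim, with no separation between groups. The 2 coding forms of Zc3h13 varied more within groups than between them, with Zc3h13-203 at a share of 0.0407 to 0.995 in Naive and 0.154 to 0.979 in Ag+Costim.

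**Figure D4:**
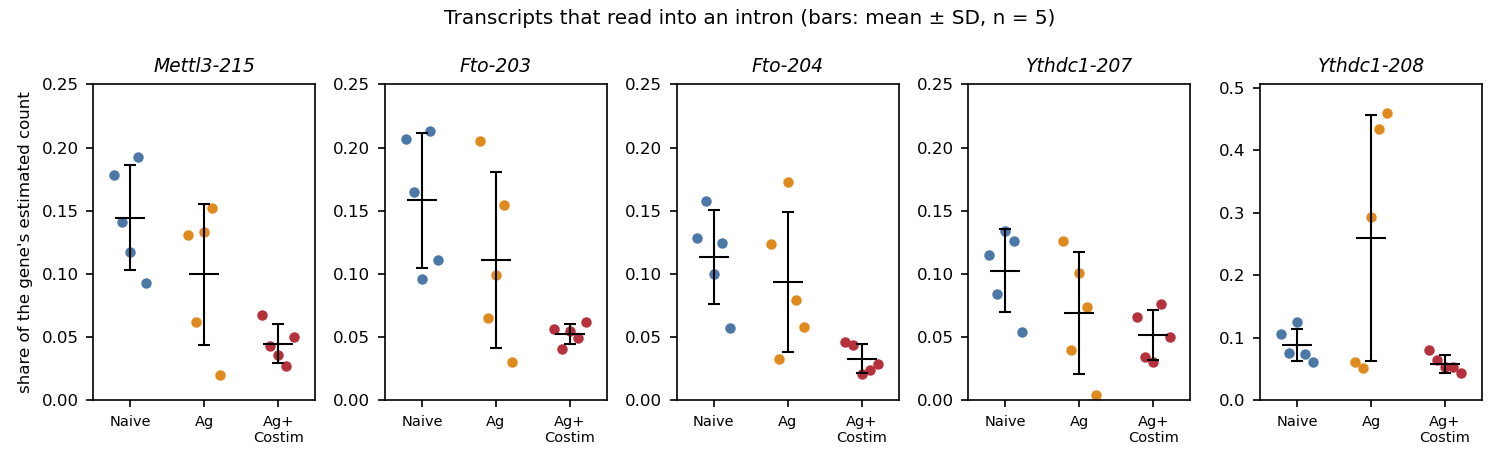
Share of the gene's estimated count (y axes, from 0) taken by 5 transcripts that read into an intron, by library (points) with mean and SD, in Naive, Ag and Ag+Costim. Mettl3-215, Fto-203 and Fto-204 were lower in all 5 Ag+Costim libraries than in any Naive library, and Ythdc1-208 was at 0.292 to 0.459 in 3 Ag libraries and at most 0.124 in Naive and Ag+Costim.

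Of the 10 members, 8 could be tested for transcript usage (all but Ythdf1 and Alkbh5) among 7501 genes. By edgeR's Simes test with a change in share of at least 0.1, 0 were called in Ag against Naive, where 0.547% of genes were, 0 in Ag+Costim against Ag (0.933%) and 0 in Ag+Costim against Naive (1.01%). At an unadjusted p under 0.05 this edgeR test gave 1, 0 and 0 members, the 1 being Ythdf3 (FDR = 0.528). Its coding form Ythdf3-203 held 0.167 to 0.180 of the gene in Naive 1, Naive 4 and Naive 5 but 0.00716 and 0.00536 in Naive 2 and Naive 3, within the Ag range of 0.00290 to 0.0333. With limma's diffSplice, Ythdc1 passed in Ag against Naive (FDR = 0.0314), and Fto (FDR = 0.00122) and Ythdc1 (FDR = 0.00576) passed in Ag+Costim against Naive. Single reads of 50 bases assign transcripts of 1 gene with limited certainty.

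The wider pathway was followed in 37 further genes, all of which were tested, and most calls fell between Ag+Costim and Naive. There edgeR called 6 of 37 higher, where 21.0% of all tested genes were, and 6 lower, where 23.6% were, neither share being above the table at large. DESeq2 called 8 and 8 of the 37, where 45.3% of its calls over all genes were higher. Voom called 15 and 11, and it called most of all tested genes in this comparison. In Ag against Naive 1 was higher (Rida) and 3 were lower (Alkbh1, Socs1 and Socs3), against 3.05% and 3.66% of all genes. DESeq2 called 1 and 6, where 46.1% of its calls over all genes were higher. In Ag+Costim against Ag 0 were called in the main fit, and 10 had an unadjusted p under 0.05, as had 26.8% of all genes. DESeq2 called 5 higher and 1 lower, where 26.2% of its calls over all genes were higher. Voom called 18 higher and 8 lower, and it called most of all tested genes here too. The median log2 fold change of the 37 was -0.22, 0.20 and 0.08 in Ag against Naive, Ag+Costim against Ag and Ag+Costim against Naive.

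Other subunits of the writer complex included 1 call of 4, higher in Ag+Costim than in Naive, where 21.0% of all tested genes were. Rbm15, which recruits the complex to its targets, was at 20.7 ± 2.72 CPM in Naive cells, 17.4 ± 2.11 in Ag and 28.7 ± 3.61 in Ag+Costim. It was higher in Ag+Costim than in Naive (log2 fold change 0.47, FDR = 0.0144) and, without overlap of the libraries, stood at 0.73 over Ag (SE 0.13, FDR = 0.0642). Virma, Cbll1 and Rbm15b did not pass in the main fit. Of the 6 other adenosine methyltransferases and partners, 0 passed in any comparison in the main fit. Mettl16, named after its values were seen, was called higher in 11 of 27 alternatives in Ag+Costim against Naive and in 4 of 27 against Ag. In the 3 genes of S-adenosylmethionine supply and recycling, which provide the methyl donor and clear its product, 0 passed in the main fit. Ahcy stood at 1.12 in Ag+Costim over Naive (SE 0.45, FDR = 0.0548), where 13 of 27 alternatives called it higher, and at 0.62 in Ag over Naive (FDR = 0.344).

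Among 10 other readers, 3 were called higher and 1 lower in Ag+Costim against Naive, near the 21.0% and 23.6% of all genes. Hnrnpa2b1, a nuclear RNA-binding protein, rose by 1.84-fold (log2 fold change 0.88, FDR = 0.0120), Hnrnpc by 1.48-fold (0.56, FDR = 0.0181) and Fxr1 by 1.22-fold (0.29, FDR = 0.0413). Igf2bp2, of the family that stabilises marked RNA, fell from 3.48 ± 0.851 to 1.26 ± 0.0965 CPM (log2 fold change -1.46, FDR = 0.0201) and stood at -0.73 in Ag+Costim over Ag (FDR = 0.301). Its relative Igf2bp1 was near the detection limit, at 0.712 ± 0.530 CPM in Naive cells, 1.78 ± 3.18 in Ag and 0.0865 ± 0.0650 in Ag+Costim. Its log2 fold change was 1.21 for Ag over Naive (FDR = 0.489), -4.14 for Ag+Costim over Ag (FDR = 0.0982) and -2.92 for Ag+Costim over Naive (FDR = 0.0901), and none passed in the main fit. Igf2bp3 was at 0.80 over Ag (FDR = 0.272).

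Of 4 decay partners, 2 were called higher in Ag+Costim than in Naive, where 21.0% of all tested genes were. These were Rida and Pop1, which are described as linking YTHDF2 to endonucleolytic cleavage. Rida, the adaptor between YTHDF2 and ribonuclease P/MRP, rose from 19.7 ± 3.83 CPM in Naive to 29.1 ± 4.59 in Ag (log2 fold change 0.56, FDR = 0.0317) and 28.9 ± 0.280 in Ag+Costim (0.55, FDR = 0.0111), and the call in Ag held in 13 of 26 alternatives. Pop1, a protein subunit of ribonuclease P/MRP, rose from 9.96 ± 4.18 CPM in Naive to 22.6 ± 2.20 in Ag+Costim (log2 fold change 1.19, FDR = 0.00542), and its libraries also lay above those of Ag without overlap (0.62, FDR = 0.129). Cnot1, the scaffold of the deadenylase complex, and Upf1 did not pass in the main fit.

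The relatives of the eraser ALKBH5 that were called in the main fit were lower. Of 7 other AlkB family dioxygenases, 3 were called lower in Ag+Costim against Naive, where 23.6% of all tested genes were. They were Alkbh1 (-1.01, FDR = 0.00772), Alkbh4 (-0.75, FDR = 0.0118) and Alkbh6 (-0.52, FDR = 0.0257). Alkbh1 was also called lower in Ag against Naive (-0.91, FDR = 0.0352). These enzymes act on other substrates, such as tRNA and proteins. The Alkbh1 call in Ag held in 11 of 26 alternatives. Alkbh2, Alkbh3, Alkbh7 and Alkbh8 did not pass in that fit, and 2 of 27 alternatives called Alkbh3 higher in Ag+Costim against Naive.

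The SOCS transcripts were the members of the wider list with the widest called falls. Socs3, a feedback inhibitor of cytokine receptors, was at 83.4 ± 36.5 CPM in Naive against 19.1 ± 13.0 in Ag and 13.9 ± 4.65 in Ag+Costim. The log2 fold change was -2.12 in Ag (FDR = 0.0176) and -2.59 in Ag+Costim (FDR = 0.00297) against Naive. Socs1 went from 37.0 ± 8.93 CPM in Naive to 16.2 ± 6.21 in Ag (-1.18, FDR = 0.0284) and 12.8 ± 3.81 in Ag+Costim (-1.53, FDR = 0.00376). In Ag the call held in 21 of 26 alternatives for Socs3 and in 17 for Socs1, and with lane as a term it was lost for both. Cish had -1.38 in Ag (FDR = 0.170) and -1.27 in Ag+Costim (FDR = 0.105). In Ag+Costim against Naive with lane as a term, Pop1, Socs1 and Socs3 passed among the 37.

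**Figure D5:**
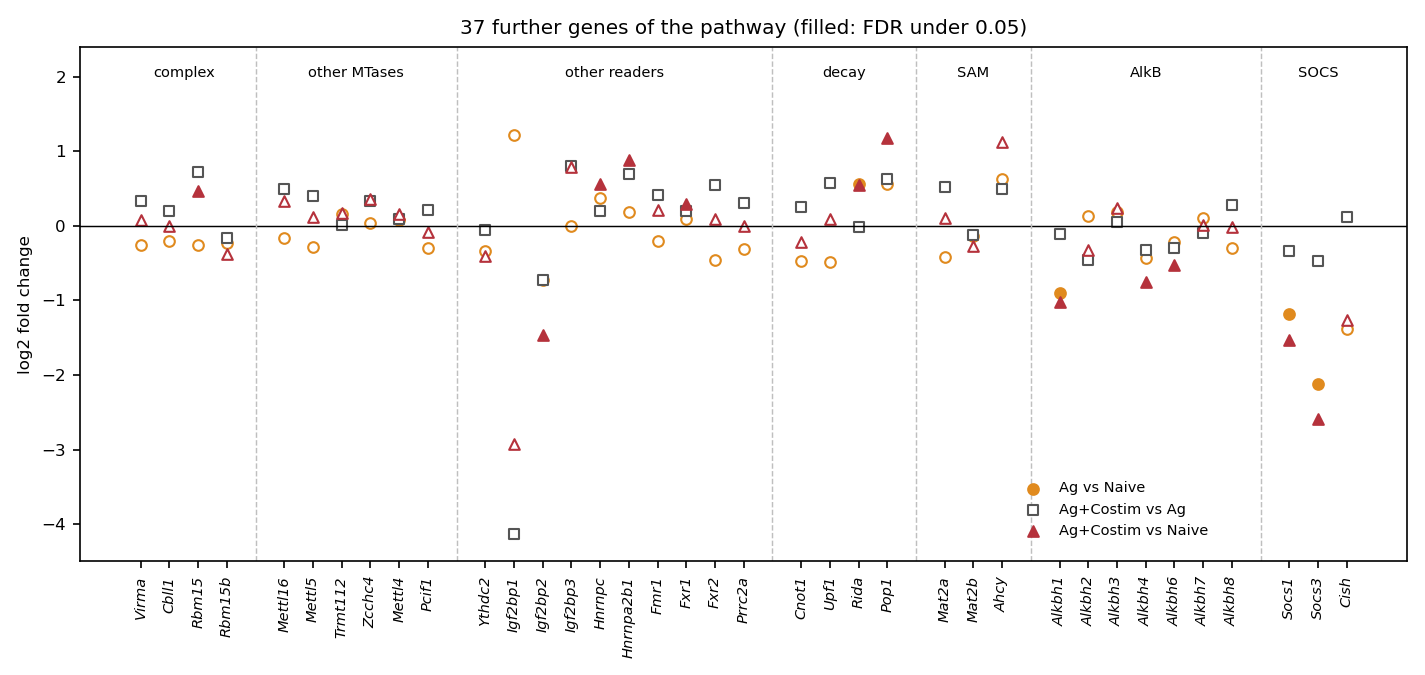
Log2 fold change (y axis) of 37 further genes of the pathway (x axis) in Ag vs Naive (circles), Ag+Costim vs Ag (squares) and Ag+Costim vs Naive (triangles), filled where the edgeR FDR was under 0.05, in blocks for complex subunits, other methyltransferases (MTases), other readers, decay partners, S-adenosylmethionine (SAM) genes, the AlkB family and SOCS transcripts. Filled triangles lie above 0 for 6 genes and below 0 for 6, and no square is filled.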

How the data were processed

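RNA was poly(A)-selected through SMART-Seq v4 and Nextera XT libraries, a kit that does not mark strand, and sequenced as single reads. The authors deposited estimated counts per gene and per transcript, already whole numbers, which the submitters' processing notes credit to HISAT2 2.1.0, SAMtools 1.9 and StringTie 2.1.0 on mm10, with R 4.0.5 and DESeq2 1.30.1. The sequencing core's sheet, deposited by the authors, gave the count of sequenced reads, the lane, the input amount and percentages such as the reads aligned, which entered no result, and it names mm9. Recorded sex came from a deposited sample sheet. A deposited FPKM table was not used, because the columns of Ag 1 and Naive 5 were identical.

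Of 81881 entries in the gene table, 55536 matched GENCODE M21 (GRCm38). The 26248 entries named by a number alone (0.0818% of counts) and 97 spike-in entries with 0 counts entered neither library sizes nor tests. Genes passing filterByExpr (17366) were scaled by TMM and fitted over all 15 libraries with edgeR 4.0.16 in R 4.3.3 (glmQLFit and glmQLFTest, common biological coefficient of variation 0.431), with 3 contrasts and Benjamini-Hochberg adjustment at an FDR of 0.05. CPM used TMM library sizes, with a prior count of 2 on the log scale. Transcript shares were tested with edgeR and a change in share of at least 0.1. DESeq2 1.42.0, limma 3.58.1, other scalings, lane, sex and library subsets were alternatives. The scripts were tested on simulated data. Total counts were 4865952 to 25280667 per library, with a median of 14967616. No 2 libraries of a group agreed within sampling noise (lowest chi-square per degree of freedom 5.62).

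The 10 members, the 37 further genes and the marker lists were chosen with earlier results of these data known. Every member was named whatever its values. Of the 37, those called and the 2 highest and 2 lowest log2 fold changes of each comparison were given values, and the 3 nearest patterns were taken for 1 gene of each role.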

Additional observations from a re-analysis of the deposited data

Results flagged for a closer look

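Naive 5 stood apart from the other Naive libraries in 2 members. Its Ythdf1 level was 60.3 CPM against at most 30.6 in the others, a gap of 0.911 of the group's range, and its Alkbh5 level was 74.3 CPM against at most 50.7, a gap of 0.746, where 0.71 is the limit for 5 samples. Of 30 groups of values examined, chance alone would put about 1.5 past the limit. Naive 5 also had 3035 CPM of dividing or effector T cell markers, and the part of these in both values was not tested.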

How the results depend on the processing

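Over the 10 log2 fold changes and their alternatives, 687 of 800 values kept direction and side of the threshold, 47 were no longer called, 35 became called and 31 changed sign, 0 of them while called. Where no cause is given, it was not tested.

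In Ag against Naive, 1165 genes and 1 lower member (Fto) were called. DESeq2 called 2778 genes and 2 lower members, fitting without the filter on low counts 208 and 0, the 2 groups alone 6 and 0, lane as a term 0 and 0, voom 4039 and 3, and leaving out Ag 3 and Naive 5 gave 3945 genes. Leaving out 1 library at a time gave 255 genes (without Naive 1) to 3871 (without Naive 5), 0 higher members and 0 to 3 lower ones. The sign turned for Wtap without TMM (-0.026) and without the filter (-0.027) and for Ythdf2 with lane as a term (0.082). Without Ag 3 and Naive 5 it turned for Ythdf1 (0.082), Ythdf2 (0.0086) and Alkbh5 (0.13), and Alkbh5 ranged from -0.22 to 0.06 with 1 library left out.

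In Ag+Costim against Ag, 6 genes and 0 members were called. DESeq2 called 2533 genes and 2 higher members, no filter 3 genes, the 2 groups alone 0, recorded sex as a term 2, lane as a term 0, lane 2 alone 0, totals over all annotated genes 33, and leaving out Ag 3 and Naive 5 gave 989. Voom called 11205 genes, with 4 higher members and 1 lower. Leaving out 1 library gave 0 to 3573 genes (most without Ag 5), 0 to 2 higher members and 0 to 1 lower. Without TMM, Mettl3 (-0.069), Zc3h13 (-0.048), Ythdf1 (-0.014) and Ythdf3 (-0.069) turned sign, as they did with upper-quartile scaling (-0.10, -0.078, -0.056 and -0.096). Mettl3 also turned with the 2 groups alone (-0.0046), lane as a term (-0.072) and lane 2 alone (-0.059). Voom turned Zc3h13 (-0.13), Ythdf3 (-0.19) and Fto (-0.051). With 1 library left out, Mettl3 ranged from -0.015 to 0.11, Ythdf1 from -0.10 to 0.30 and Ythdf3 from -0.031 to 0.15.

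In Ag+Costim against Naive, 7755 genes, 2 higher members and 3 lower ones were called. No filter gave 4158 genes, 0 higher and 1 lower, lane as a term 943, 0 and 1, lane 3 alone 0 higher and 1 lower, and voom 13527, 4 and 5. Without TMM 1 was higher and 5 lower, upper-quartile scaling and the 2 groups alone gave 5 lower each, and leaving out Ag 3 and Naive 5 gave 4 higher and turned Ythdf1 (0.085). Of the calls over all genes, 37.2% were higher without TMM and 43.1% with upper-quartile scaling, against 47.0% in the main fit. How many genes were called in these settings and in lane 3 alone is not given here. Leaving out 1 library gave 3892 genes (without Naive 4) to 9252 (without Ag 5), 1 to 3 higher members and 1 to 4 lower, with Ythdf1 from -0.41 to 0.022.

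Transcript usage was called for 41, 70 and 76 genes. No filter gave 236, 219 and 284, limma's diffSplice 123, 45 and 634 with 1, 0 and 2 members, and leaving out 1 library 46 to 84, 54 to 128 and 76 to 165 with 0 members.

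Same-numbered libraries deviated together (r over 0.1) in 5 of 15 pairs (r from -0.324 to 0.470), and the numbers were not taken to pair them. Recorded sex was the same in every group for each replicate number, so this check does not exclude pairing. With the replicate number as a block, 1660, 0 and 7833 genes were called, Zc3h13 passed (FDR = 0.037) and Ythdf3 did not (FDR = 0.055) in Ag+Costim against Naive, and 19, 21 and 67 genes passed for usage.

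Over all tested genes, the median log2 change was 0.08, -0.10 and -0.08 under TMM, -0.00, -0.18 and -0.23 without it and 0.11, -0.21 and -0.15 with upper-quartile scaling. Without the filter it was 0.58, -1.46 and -0.42. Of the calls in Ag against Naive, 45.4% were higher under TMM, 66.1% with upper-quartile scaling and 23.6% without the filter. In Ag+Costim against Ag the share was 83.3%, 26.2% by DESeq2 and 100% without the filter, and in Ag+Costim against Naive 47.0%, 37.2% without TMM and 57.9% without the filter. Ag 2 and Ag 5, with low input, and Naive 5 had the lowest voom weights (0.122, 0.0793 and 0.196).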

Other observations

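Summed per length, the readers stood at 62.6 ± 7.12 CPM per kb in Naive cells, 52.8 ± 1.93 in Ag and 61.5 ± 2.57 in Ag+Costim (mean ± SD, n = 5), with no test made on these sums. The writers summed to 37.2 ± 3.24, 33.8 ± 1.73 and 36.3 ± 1.30 CPM per kb, and the erasers to 15.4 ± 1.88, 11.8 ± 0.526 and 14.1 ± 1.35. In all 3 roles the Ag group had the lowest mean. The sums use merged exons, which span 13.651 kb in Ythdc1 and 13.031 kb in Fto and so give these 2 genes less weight than their coding forms would. The eraser sums of Ag, 11.3 to 12.5 CPM per kb, lay below those of every Ag+Costim library and of every Naive library except Naive 2, at 12.3.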
